A study of Mus musculus with 9 samples.

Results

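Autophagy delivers cell contents to the lysosome, and the genes examined here were 48 listed mouse symbols that encode its core machinery, its cargo receptors and the TFEB family of transcription factors. They were taken by symbol from the gene column of a kidney RNA sequencing table. All 48 of 48 listed genes were among the 13081 genes of that table, and all 48 passed the filter on low values, which required at least 10 normalized counts in at least 4 libraries. Atg9a passed only through the old libraries, at 13.1 to 20.5 normalized counts against 0.819 to 4.90 in the young ones. Kidneys came from wild type mice of a C57BL/6 background, with no transgene, deletion or treatment in either group: the young group was 3 months old (4 libraries) and the old group 16 months old (5 libraries). Replicate numbers only name the libraries. The labels do not say whether each library came from its own animal, so the p-values measure the spread between these libraries. Titles of the young and old libraries carry different prefixes, so age and whatever the prefix marks cannot be told apart. The comparison asks which of these transcripts differ between young and old kidneys when no mutation is present.

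Autophagy starts when a kinase complex built around Ulk1 or Ulk2 switches on a lipid kinase complex that marks the membrane of a growing phagophore. Membrane and lipid are supplied to it, small ubiquitin-like proteins of the Atg8 family are attached to its lipid, and cargo receptors bind these proteins while they hold ubiquitin or an organelle. The closed autophagosome then fuses with a lysosome. TFEB, TFE3 and MITF are related transcription factors that bind the sequence CACGTG and switch on lysosomal and autophagy genes when mTORC1 signaling is low, and the folliculin-interacting proteins Fnip1 and Fnip2 take part in that control. Proximal tubule cells of the kidney are known for a high rate of autophagy.

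Values are normalized counts, which are reads per gene divided by a size factor for each library. In the old kidneys, 12 members were higher and 15 were lower than in the young kidneys at an adjusted p-value under 0.05 (limma on log2 of the normalized count + 1, adjusted over all 12667 genes tested), and 21 did not pass. Genes that passed are referred to as called. The 27 called members were 56.3% of the 48, where 59.7% of all genes tested were called, 29.2% higher and 30.5% lower. Of the called members, 15 differed by at least 1.5-fold, 7 higher and 8 lower, which is 31.3% of the 48 against 45.1% of all genes tested. The values of the old and young libraries did not overlap in 26 members, 11 above and 15 below, which is 54.2% against 49.0% of all genes tested. The counts of higher members here and below include Atg9a, which passed the filter only through the old libraries. The median log2 fold change of the members was -0.04 and the median of its size was 0.42, beside 0.56 over all genes. The share of members called was therefore near the background of the table, and the share called with at least 1.5-fold was below it. In bulk kidney RNA, fewer cells of a type and less RNA per cell cannot be told apart.

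**Figure D1:**
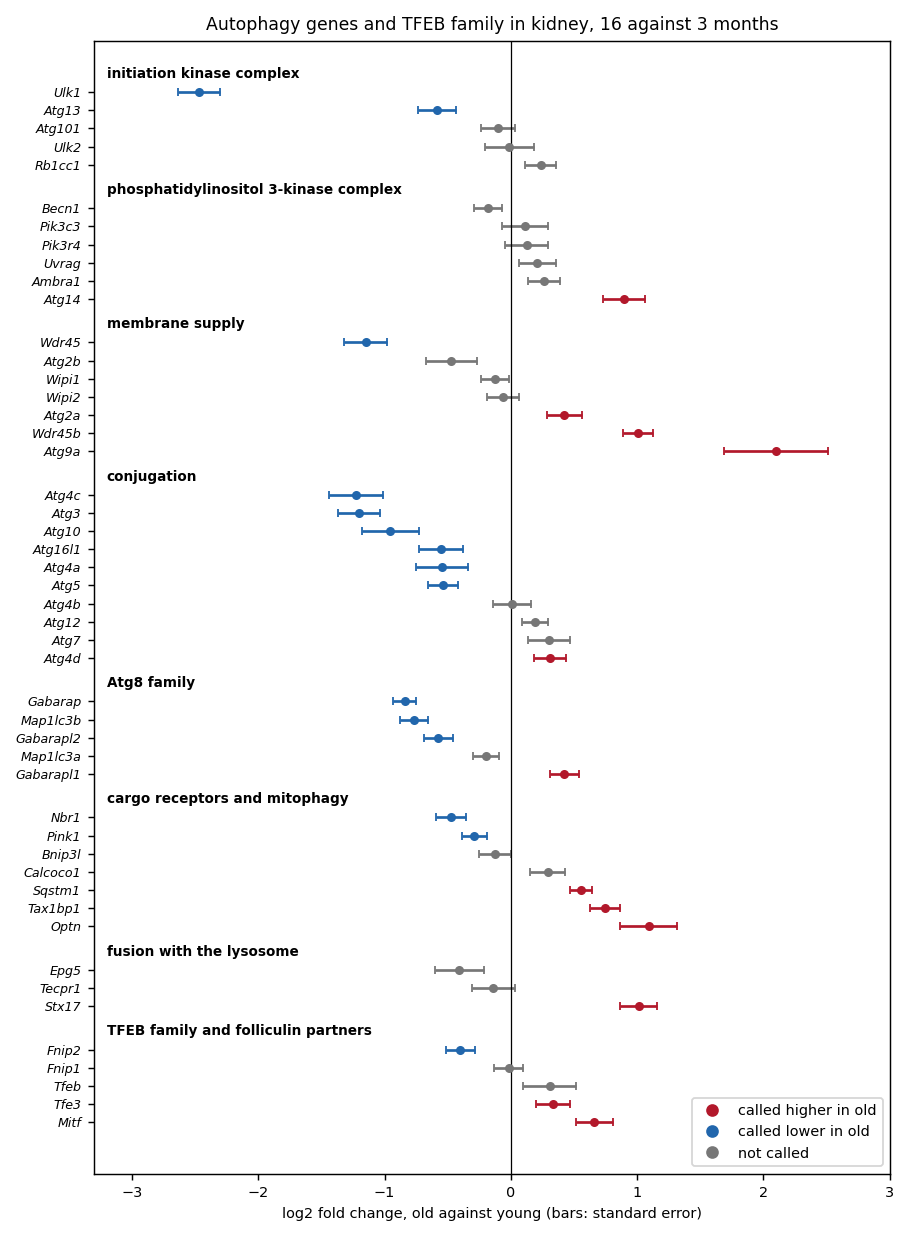
Log2 fold change of the 48 members between old and young kidneys (horizontal axis, log2 of the normalized count + 1) with its standard error as a bar, by role in autophagy. Red points are the 12 members called higher, blue points the 15 called lower and gray points the 21 not called. Ulk1 lies farthest to the left at -2.47 and Atg9a farthest to the right at 2.10. Atg9a passed the filter on low values only through the old libraries.

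By step of the pathway, the called members fell out as follows. The background for these counts is the 29.2% higher and 30.5% lower of all genes tested. Among called members, the initiation kinase complex had 0 higher and 2 lower of 5, the phosphatidylinositol 3-kinase complex 1 higher and 0 lower of 6, and membrane supply 3 higher and 1 lower of 7. Conjugation had 1 higher and 6 lower of 10, and the Atg8 family 1 higher and 3 lower of 5. Cargo receptors and mitophagy genes had 3 higher and 2 lower of 7, fusion genes 1 higher and 0 lower of 3, and the TFEB family with the folliculin partners 2 higher and 1 lower of 5. The summed normalized counts of all 48 members were 15288 ± 818 (SD, n = 4) in young and 15825 ± 711 (SD, n = 5) in old kidneys, and these ranges overlapped. As a share of all reads in the table, the members held 0.303% in young and 0.302% in old libraries on average. Those reads include mitochondrial genes, which took 27% to 29.7% of them in young and 35.8% to 38.1% in old libraries. The near-equal shares therefore do not show that the members held an unchanged share of the other reads. The summed level of the initiation complex was 899 to 1084 in young and 618 to 672 in old libraries, and that of the cargo receptors and mitophagy genes was 3513 to 4019 in young and 4645 to 5079 in old libraries. Neither pair of ranges overlapped, but 1 gene carried each difference. Without Ulk1, the other 4 genes of the initiation complex summed to 535 to 643 in young and 563 to 584 in old libraries, which overlapped. Without Sqstm1, the other 6 cargo receptors and mitophagy genes summed to 1676 to 1888 in young and 1752 to 1963 in old libraries, which also overlapped.

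Several measures of the libraries moved with age beside these results. The table held 5093029 to 6355095 reads in young and 4486406 to 5794960 in old libraries, and mitochondrial genes took 27% to 29.7% of them in young and 35.8% to 38.1% in old libraries. Without the mitochondrial rRNA genes that share went the other way, at 23.8% to 25.3% in young and 12.7% to 14.99% in old libraries. Leaving the mitochondrial genes out and rescaling the rest shifted the median log2 fold change of all genes by 0.14 and the share of higher calls among all called genes from 48.9% to 58.5%. Under that scaling the members split into 17 higher and 11 lower. Of the 8 proximal tubule markers (the cells that fill most of the cortex), 3 were called higher and 4 lower, and their summed level ran from 173900 to 206600 in young and from 116100 to 161600 in old libraries, 0.698 of the young mean. That sum was mostly Kap (159722 in young and 99735 in old kidneys on average). The other 7 markers summed to 32323 to 33135 in young and 30428 to 38577 in old libraries, 1.06 times the young mean, with Lrp2, Slc5a12 and Aqp1 called higher and Cubn, Slc5a2 and Slc22a6 called lower. The 3 distal convoluted tubule markers (2 higher, 1 lower) summed to 2019 to 2722 in young and 3977 to 4850 in old libraries, 1.96 times the young mean, most of it Slc12a3 (2106 and 4295 on average). The 5 endothelial markers (3 higher, 0 lower) summed to 888 to 943 and 1180 to 1410, 1.41 times the young mean, and the 4 principal cell markers (0 higher, 3 lower) to 2001 to 2640 and 934 to 2936, 0.641 times the young mean. The defining markers of kidney tubules, podocytes and endothelium were all in the table. The summed levels of the other 8 marker lists ran from 0.522 (adipocyte) to 3.69 (lymphocyte) times the young mean, and both ends rest on 1 gene. Fabp4 was called lower, from 490.3 to 157 on average, while the other 3 adipocyte markers summed to 0.819 to 112 in young and 1.87 to 405 in old libraries with none called. Of the 6 lymphocyte markers 4 were not in the table, and the sum was mostly Jchain (40.96 and 151 on average). The part of these differences in the members' changes was not tested.

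The stretches below show where CACGTG, the letters that TFEB, TFE3 and MITF are known to bind, lies before the start of members. They are shown because Tfe3 and Mitf were called higher, the call of Tfe3 being close to the threshold. Tfeb was not called, and Tfec, a TFEB family gene outside the 48, was called lower. RefSeq promoters (GRCm38.p6, 250 bases before to 50 bases after the start) were matched by symbol for 39 of the 48 members, 48 promoters in all. CACGTG reads the same on both strands, and it was present in 5 of these 48 promoters (10.4%), against 10.02% of the promoters of genes tested and 7.15% of all promoters. TCACGTG, searched on both strands and always containing CACGTG, was in 4 (8.33%), against 6.09% for genes tested. The 5 genes were Atg3, Atg5, Atg7, Atg14 and Fnip1. Atg3 and Atg5 were called lower, Atg14 was called higher with its match after the start, and Atg7 and Fnip1 were not called. The stretches before the start are given from 5′ to 3′ on the strand of the gene, with CACGTG in capitals. They lie on the plus strand at chr16:45158708-45158767 for Atg3, chr10:44268279-44268338 for Atg5, chr6:114670937-114670996 for Atg7 and chr11:54438077-54438136 for Fnip1. In Atg3, a pair of matches lies 91 and 68 bases before the start. In Atg5 the match lies 11, in Atg7 129 and in Fnip1 72 bases before it.
Atg3: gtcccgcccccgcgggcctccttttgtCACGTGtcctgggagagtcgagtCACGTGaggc
Atg5: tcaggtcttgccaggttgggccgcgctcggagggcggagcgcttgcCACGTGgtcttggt
Atg7: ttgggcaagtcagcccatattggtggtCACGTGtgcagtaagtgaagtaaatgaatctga
Fnip1: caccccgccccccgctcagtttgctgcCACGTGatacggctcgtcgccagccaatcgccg
Members with these letters therefore include genes that were called in both directions and genes that were not called.

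Ulk1, the kinase that starts autophagosome formation, fell more than any other member. In the young libraries Ulk1 was at 308, 429, 441 and 364 normalized counts, and in the old libraries at 57.8, 87.5, 86.2, 64.4 and 51.98. Every old library was below every young library by a wide margin. The mean fell from 386 ± 61.97 (SD, n = 4) to 69.6 ± 16.4 (SD, n = 5), which is -2.47 (SE 0.16, adjusted p-value 5.032e-10) as a log2 fold change, where SE is the standard error. Its paralog Ulk2, which can stand in for it, was at 104 ± 21.1 in young and 104 ± 28.4 in old kidneys, and its log2 fold change was -0.011 (SE 0.19, adjusted p-value 0.965). The direction of Ulk2 turned with mitochondrial genes left out, by edgeR and DESeq2, and without young replicate 3 or old replicate 1 or 5, and it was called in none of these. Ulk1 therefore held 75.5% to 82.5% of the reads of both kinases in young libraries and 37.6% to 44.0% in old libraries. The mean share fell by 38.5 percentage points (exact permutation test, two-sided, p = 0.0159, the smallest that 4 against 5 libraries allow, adjusted p = 0.02998 over the 17 paralog shares tested).

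Atg13, the adaptor that ties the kinase to its scaffold, also fell. The young libraries held 140.0, 154, 144 and 120.4 normalized counts of Atg13 and the old libraries 107, 117, 84.2, 78.4 and 80.6. The groups did not overlap, with the highest old library just below the lowest young one, and the log2 fold change was -0.59 (SE 0.15, adjusted p-value 0.00252). Atg101, the partner of Atg13, had 145 ± 16.3 in young and 135 ± 16.1 in old kidneys with a log2 fold change of -0.10 (SE 0.13, adjusted p-value 0.518). Rb1cc1, the scaffold of the complex, had 202 ± 27.4 in young and 238 ± 27.6 in old kidneys (0.24, SE 0.12, adjusted p-value 0.111). Rb1cc1 passed the threshold without old replicate 2, with a log2 fold change of 0.30 (adjusted p-value 0.0365), and with mitochondrial genes left out (0.0135). It turned to -0.12 when a trend on transcript length was removed.

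In the lipid kinase complex, only Atg14 was called. Atg14 is the subunit that directs the complex to sites of autophagosome formation. Normalized counts of Atg14 were 59.8, 55.4, 50 and 45.3 in young and 83.7, 82.04, 112, 123 and 97.6 in old libraries. Every old library was above every young library, and the log2 fold change was 0.90 (SE 0.17, adjusted p-value 0.0001297). The catalytic subunit Pik3c3 was at 51.9 ± 6.62 in young and 56.7 ± 10.4 in old kidneys (0.11, SE 0.18, adjusted p-value 0.613), and its regulatory partner Pik3r4 at 56.2 ± 3.59 and 62.02 ± 11.1 (0.12, SE 0.17, adjusted p-value 0.553). Becn1, the shared core subunit, was at 236 ± 15.98 in young and 209 ± 17.5 in old kidneys (-0.18, SE 0.11, adjusted p-value 0.1696). Uvrag, which takes the place of Atg14 in the endosomal form of the complex, was at 77.3 ± 9.11 in young and 89.6 ± 9.72 in old kidneys (0.21, SE 0.15, adjusted p-value 0.2300). Ambra1, a Becn1-binding regulator, had groups that did not overlap, at 93.3 to 114 in young and 115 to 133 in old libraries, but its log2 fold change of 0.26 (SE 0.13, adjusted p-value 0.0869) did not pass. After rescaling to totals that leave out mitochondrial genes, Ambra1 passed (0.40, adjusted p-value 0.0106).

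Among the genes of membrane supply, the closely related genes Wdr45 and Wdr45b, whose products bind phosphatidylinositol 3-phosphate, changed in opposite directions. Wdr45 had 86.8, 80.6, 70.6 and 67.9 normalized counts in young replicates 1 to 4 and 33, 35, 31.4, 35.4 and 33.9 in old replicates 1 to 5. In the young libraries Wdr45b was at 201, 156, 145 and 193 normalized counts, and in the old libraries at 324, 330.4, 335, 349 and 404. Neither gene had overlapping groups, and the old libraries lay below the young ones for Wdr45 and above them for Wdr45b. On the log2 scale Wdr45 changed by -1.15 (SE 0.17, adjusted p-value 1.15e-05) and Wdr45b by 1.01 (SE 0.12, adjusted p-value 9.44e-07). Wdr45 shares exon sequence on the same strand with the gene model Gm45208 in the annotation used here, but none of its last 500 bases are shared with another gene. The share of Wdr45 among the reads of the pair was 26.0% to 34.0% in young and 7.75% to 9.58% in old libraries (exact permutation test, two-sided, p = 0.0159, adjusted p = 0.02998).

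Atg2a and Atg2b encode proteins that transfer lipid to the growing membrane. Atg2a rose from 119 ± 12.8 to 161 ± 24.9 with a log2 fold change of 0.42 (SE 0.14, adjusted p-value 0.01300), but it did not pass without young replicate 3 (adjusted p-value 0.0589) or with the length trend removed (0.326). Atg2b had 64.9 ± 17.4 in young and 45.7 ± 7.45 in old kidneys, and the log2 fold change was -0.47 (SE 0.20, adjusted p-value 0.0521). Atg2b passed as lower by edgeR (adjusted p-value 0.03904) and DESeq2 (0.0452), under TMM (0.0499), table totals (0.0336) and the length correction (0.00176), and without young replicate 4 (0.0135) or old replicate 5 (0.02604). The share of Atg2a in the pair was 57.2% to 74.1% in young and 75.3% to 82.9% in old libraries (exact permutation test, two-sided, p = 0.0159, adjusted p = 0.02998). Wipi1, which also binds the lipid mark, was at 328 ± 20.5 in young and 302 ± 37.2 in old kidneys (-0.13, SE 0.11, adjusted p-value 0.337). Its relative Wipi2 was at 409 ± 44.5 and 394 ± 63.6 (-0.062, SE 0.12, adjusted p-value 0.687), and the share of Wipi1 in the pair was 44.6% and 43.5% (exact permutation test, two-sided, p = 0.413). Atg9a, the membrane protein of the vesicles that seed the phagophore, rose by 2.10 on the log2 scale (SE 0.41, adjusted p-value 0.000242). Atg9a passed the filter on low values only through the old libraries, which its p-value does not take into account. Its counts were low, with 1, 5, 5 and 4 reads in the young libraries and 16, 12, 18, 22 and 13 in the old ones. The last 500 bases of Atg9a are wholly shared with the overlapping model Gm29253, so its level is uncertain.

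Of the 10 conjugation genes, 6 were called lower. The young libraries held 224, 213, 207 and 169 normalized counts of Atg3 and the old libraries 90.8, 132, 78.1, 80.2 and 67.9. Atg3, which passes Atg8 proteins to lipid, had no overlap between groups, with old replicate 2 the old library nearest the young ones, and its log2 fold change was -1.20 (SE 0.17, adjusted p-value 6.11e-06). Its promoter holds the pair of CACGTG matches shown above. Atg10, which does the same step for Atg12, fell from 46.3 ± 3.03 to 24.1 ± 6.81, a log2 fold change of -0.95 (SE 0.23, adjusted p-value 0.00138). Atg5, the partner to which Atg12 is joined, fell from 187 ± 21.1 to 128 ± 5.15 (-0.54, SE 0.12, adjusted p-value 0.000749). Atg16l1, which brings that pair to the membrane, fell from 82.5 ± 12.4 to 56.2 ± 9.64 (-0.55, SE 0.17, adjusted p-value 0.00999). The call of Atg16l1 was lost without young replicate 1 (adjusted p-value 0.0527) and with mitochondrial genes left out (0.0515). Atg12 itself was at 291 ± 16.95 in young and 332 ± 20.9 in old kidneys (0.19, SE 0.10, adjusted p-value 0.105), and with mitochondrial genes left out it passed as higher (0.33, adjusted p-value 0.005702). Atg7, which activates both kinds of protein, was at 79.4 ± 9.56 and 99.3 ± 20.3 (0.30, SE 0.17, adjusted p-value 0.123), and it passed as higher without old replicate 5 (adjusted p-value 0.0339) and with mitochondrial genes left out (0.0287).

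Of the 4 Atg4 proteases, which trim Atg8 proteins and free them from lipid, 2 were called lower and 1 higher. Atg4c fell from 56.6 ± 7.63 to 23.9 ± 5.82, a log2 fold change of -1.23 (SE 0.22, adjusted p-value 7.75e-05). Atg4a fell from 54.9 ± 5.33 to 38.1 ± 8.63 (-0.54, SE 0.20, adjusted p-value 0.0283), although 43.5% of the last 500 bases are shared with the pseudogene Atg4a-ps, which makes its level uncertain. Its call was lost without young replicate 2 (adjusted p-value 0.07602), young replicate 3 (0.0786) or old replicate 1 (0.0693), with mitochondrial genes left out (0.09599) and with the length trend removed (0.214). Atg4d rose from 176 ± 7.26 to 220.2 ± 33.6 (0.31, SE 0.12, adjusted p-value 0.0396) with overlapping groups. Its call was close to the threshold: it was lost under table totals (adjusted p-value 0.0803), with the length trend removed (0.595) and on leaving out any young library or old replicate 2, 4 or 5, with adjusted p-values of 0.05101 to 0.0922. Atg4b was at 119 ± 16.9 in young and 119.7 ± 20.8 in old kidneys (0.0069, SE 0.15, adjusted p-value 0.972), with a direction that turned under table totals, with the length trend removed and without single libraries. As a share of the reads of the 4 proteases, which does not depend on the size factors, Atg4d took 40.6% to 44.8% in young and 48.9% to 57.5% in old libraries, and Atg4c took 13.1% to 15.4% in young and 5.29% to 7.18% in old libraries. Atg4a took 11.9% to 15.7% and 7.64% to 10.99%. Each of these 3 shares had no overlap between groups (exact permutation test, two-sided, p = 0.0159, adjusted p = 0.02998). The share of Atg4b was 29.1% and 29.9% on average (exact permutation test, p = 0.794).

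**Figure D2:**
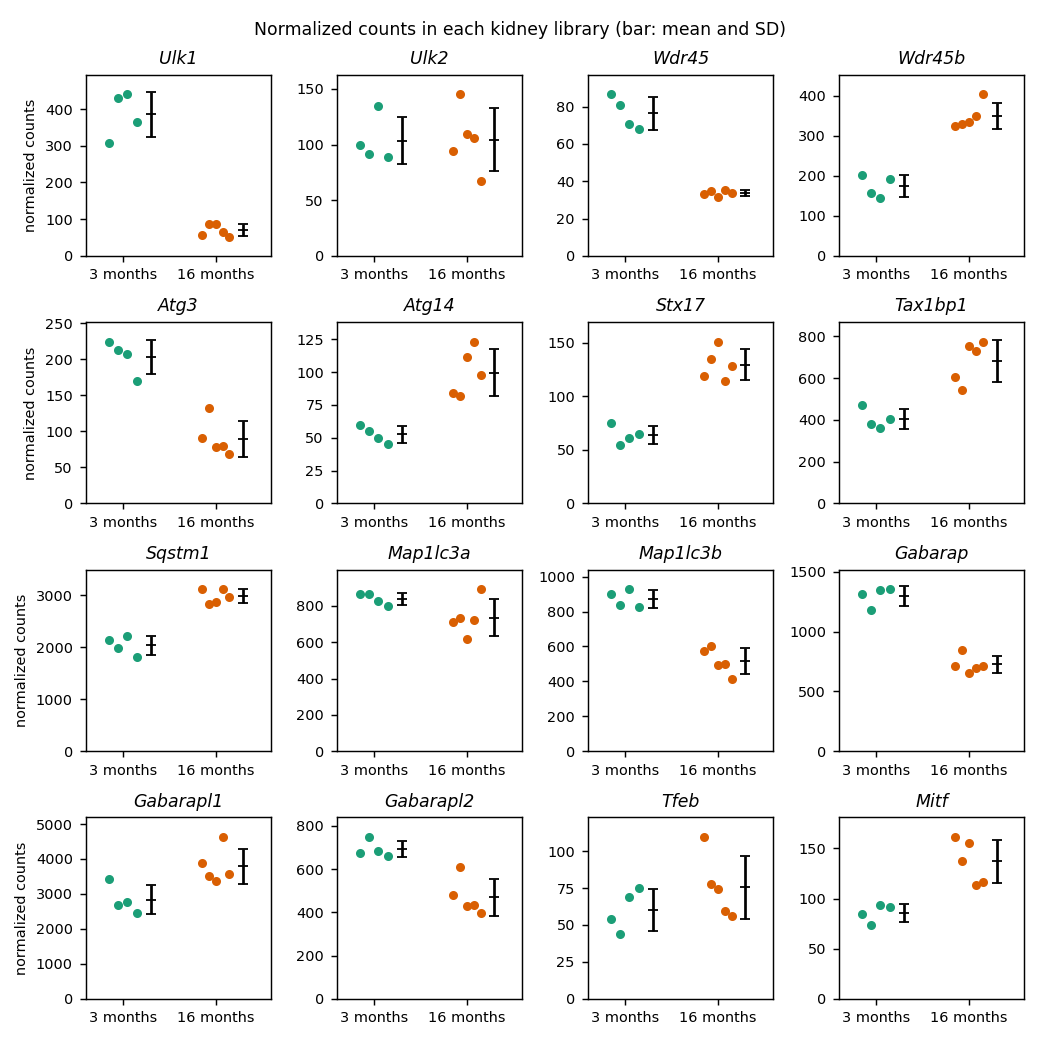
Normalized counts of 16 members in each library, with 4 young libraries (3 months, green) and 5 old libraries (16 months, orange), and the mean with its SD in black. Axes start at 0 and differ between genes; Ulk1, Wdr45, Atg3, Gabarap, Map1lc3b and Gabarapl2 lie lower and Wdr45b, Atg14, Stx17, Tax1bp1, Sqstm1 and Mitf lie higher in every old library, while the groups of Ulk2, Map1lc3a, Gabarapl1 and Tfeb overlap.

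Of the 5 genes of the Atg8 family, 3 were called lower and 1 higher. These ubiquitin-like proteins are fixed to the autophagosome membrane and are bound by cargo receptors. Gabarap fell most. Normalized counts of Gabarap were 1312, 1181, 1344 and 1354 in young and 713, 848, 655, 695 and 715 in old libraries. All old libraries were below all young ones, and the log2 fold change was -0.84 (SE 0.09, adjusted p-value 4.44e-07). Map1lc3b had 901, 837, 928 and 825 normalized counts in young replicates 1 to 4 and 572, 602, 495, 499 and 411 in old replicates 1 to 5. Map1lc3b, one of the LC3 genes, thus also fell without overlap, by a log2 fold change of -0.77 (SE 0.11, adjusted p-value 7.01e-06). In the young libraries Gabarapl2 was at 676, 749, 685 and 663 normalized counts, and in the old libraries at 481, 610.4, 430.0, 433 and 395. Gabarapl2, likewise without overlap, had old replicate 2 nearest the young libraries and a log2 fold change of -0.58 (SE 0.12, adjusted p-value 0.000288), which no longer passed with the length trend removed (-0.24, adjusted p-value 0.0596).

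Gabarapl1 moved the other way. The young libraries held 3431, 2688, 2763 and 2453 normalized counts of Gabarapl1 and the old libraries 3885, 3514, 3375, 4632 and 3578. The old libraries were higher on average, but young replicate 1 lay above old replicate 3, so the groups overlapped, and the log2 fold change was 0.42 (SE 0.11, adjusted p-value 0.00337). Normalized counts of Map1lc3a were 868, 865, 827 and 801 in young and 714, 735, 616, 725 and 892 in old libraries. For Map1lc3a, old replicate 5 was above every young library and the other old libraries were below them all. The log2 fold change of Map1lc3a was -0.20 (SE 0.10, adjusted p-value 0.1001). It passed as lower without old replicate 5 (-0.27, adjusted p-value 0.01803) and under table totals (0.0272), and it turned to 0.23 when the length trend was removed. The summed level of the family was 6096 to 7189 in young and 5571 to 6984 in old libraries, and the means of 6538 ± 471 (SD, n = 4) and 6244 ± 521 (SD, n = 5) lay within that spread.

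Within the family, Gabarapl1 held 43.2% ± 3.20 (SD, n = 4) of the reads in young and 60.7% ± 3.801 (SD, n = 5) in old libraries. The lowest old library, at 55.7%, was above the highest young library, at 47.7% (exact permutation test, two-sided, p = 0.0159, adjusted p = 0.02998). Gabarap went from 19.9% to 11.7% and Map1lc3b from 13.4% to 8.28%, with the same p-values and no overlap. Gabarapl2 went from 10.7% to 7.55% with overlap (exact permutation test, p = 0.0317, adjusted p = 0.0450). Map1lc3a held 12.9% and 11.8% (exact permutation test, p = 0.317). Without old replicate 5, which alone made the groups overlap, its mean share fell by 1.81 percentage points, and the exact test is then at its smallest p-value by construction. Shares within a family add up to the whole, so a larger share of a gene such as Gabarapl1 leaves less for the rest of its family. The 17 paralog shares are therefore not separate results, and shares in other gene families were not tested as a background. In all, 12 of the 17 paralog shares passed. Leaving out a young library, or old replicate 1 or 4, brought that count to 0. With 3 against 5 or 4 against 4 libraries the smallest p-value is 0.0357 or 0.0286, so these counts say nothing of stability. A share is of reads and not of molecules, and whether reads on transcript ends rank the genes by level was not tested.

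**Figure D3:**
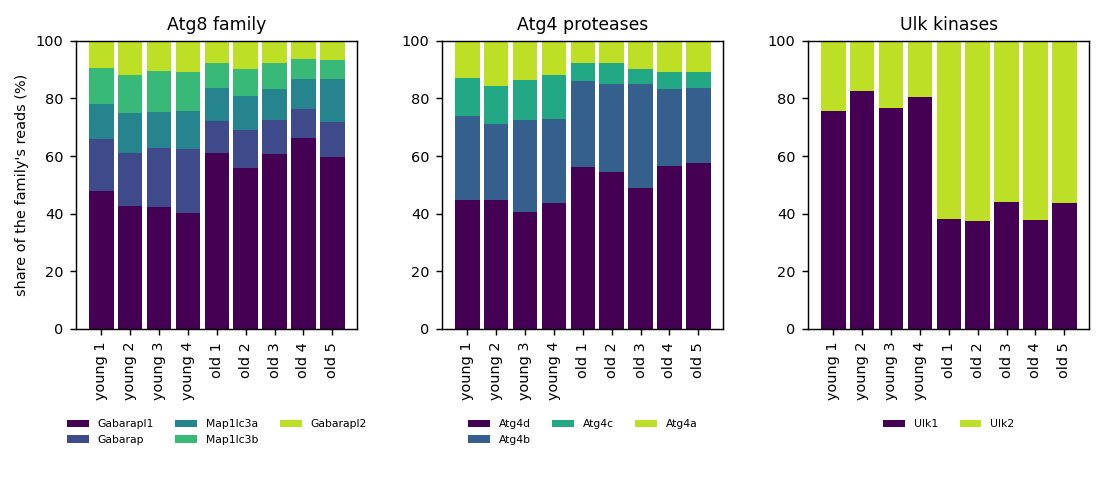
Share of each gene in the reads of its family (vertical axis, percent) in every library, for the Atg8 family, the Atg4 proteases and the Ulk kinases, with 4 young libraries on the left and 5 old libraries on the right of each panel. Gabarapl1 fills 40.2% to 47.7% of the Atg8 family bars in young and 55.7% to 66.3% in old libraries, and Ulk1 fills 75.5% to 82.5% and 37.6% to 44.0% of the Ulk bars.

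Among the cargo receptors, 3 rose. Sqstm1 encodes the receptor that links ubiquitin-tagged cargo to Atg8 proteins and is itself degraded by autophagy. Sqstm1 had 2131, 1994, 2209 and 1809.7 normalized counts in young replicates 1 to 4 and 3118, 2832, 2876, 3117 and 2972 in old replicates 1 to 5. All old libraries were above all young ones, and the log2 fold change was 0.55 (SE 0.09, adjusted p-value 3.02e-05). In the young libraries Tax1bp1 was at 470.1, 379, 364 and 406 normalized counts, and in the old libraries at 606, 543, 752, 729 and 775. Tax1bp1, another ubiquitin-binding receptor, also rose without overlap, by a log2 fold change of 0.74 (SE 0.12, adjusted p-value 2.60e-05). Optn, a receptor for mitochondria and bacteria, had fewer counts and rose from 17.2 ± 2.94 to 37.7 ± 5.35, a log2 fold change of 1.09 (SE 0.23, adjusted p-value 0.000411) with no overlap.

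Nbr1, a receptor that works beside Sqstm1, went the opposite way. It fell from 194 ± 18.3 to 139.5 ± 12.1 (-0.47, SE 0.12, adjusted p-value 0.002296) with no overlap. Pink1, the kinase that marks damaged mitochondria, fell from 733 ± 48.8 to 600.4 ± 54.6 (-0.29, SE 0.10, adjusted p-value 0.0148). Its call was lost without young replicate 1 (adjusted p-value 0.0561), with mitochondrial genes left out (0.1801) and with the length trend removed (0.537), and its exons overlap the models Gm27646 and Mir7019 on the same strand, with none of the last 500 bases shared. Bnip3l, a receptor on the mitochondrial surface, was at 298 ± 9.89 in young and 276 ± 48.7 in old kidneys (-0.12, SE 0.12, adjusted p-value 0.402). Calcoco1, a receptor for endoplasmic reticulum, was at 107 ± 12.8 and 131 ± 16.1 (0.29, SE 0.14, adjusted p-value 0.0767). Calcoco1 passed as higher without old replicate 1 (adjusted p-value 0.0489), with mitochondrial genes left out (0.0143) and with the length trend removed (0.0101).

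Of the fusion genes, Stx17 rose. It encodes the membrane anchor that autophagosomes use to fuse with lysosomes. The young libraries held 75.3, 54.4, 60.8 and 65.2 normalized counts of Stx17 and the old libraries 119, 135, 151, 115 and 128. The groups were far apart, and the log2 fold change was 1.01 (SE 0.15, adjusted p-value 8.68e-06). Tecpr1, a tether on the lysosome, was at 153 ± 21.6 in young and 141 ± 36.2 in old kidneys (-0.14, SE 0.17, adjusted p-value 0.491). Epg5, another tether, was at 45.03 ± 3.92 and 33.97 ± 5.73 (-0.41, SE 0.20, adjusted p-value 0.0798), and it passed as lower without old replicate 4 (adjusted p-value 0.0431), under table totals (0.0495) and with the length trend removed (0.000869).

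In the TFEB family, Mitf rose and Tfeb did not pass the threshold. Normalized counts of Mitf were 84.4, 73.8, 93.1 and 91.4 in young and 161, 138, 155, 114 and 117 in old libraries. The lowest old library of Mitf was above the highest young one, and its log2 fold change was 0.66 (SE 0.15, adjusted p-value 0.0007103). Tfeb had 54.1, 43.7, 68.6 and 75.1 normalized counts in young replicates 1 to 4 and 109.6, 77.7, 74.03, 59.7 and 56.2 in old replicates 1 to 5. The Tfeb groups overlapped, with old replicate 1 high and old replicates 3, 4 and 5 inside the young range. The log2 fold change of Tfeb was 0.31 (SE 0.21, adjusted p-value 0.212), and it passed with the length trend removed (0.53, adjusted p-value 0.0348). In the young libraries Tfe3 was at 89.3, 93.3, 96.1 and 102 normalized counts, and in the old libraries at 108, 119, 111, 119 and 145. For Tfe3 each old library was above each young one, by a small margin in old replicate 1, with a log2 fold change of 0.33 (SE 0.13, adjusted p-value 0.0398). That call was lost without young replicate 1, 2 or 3 or old replicate 4 or 5 (adjusted p-values 0.0565 to 0.102), under table totals (0.0834) and with the length trend removed (0.665). As shares of the reads of the 3 factors, Mitf went from 35.6% to 41.0% (exact permutation test, two-sided, p = 0.0317, adjusted p = 0.0450), with groups that overlapped, and Tfeb (p = 0.397) and Tfe3 (p = 0.429) did not pass.

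Of the folliculin-interacting proteins, Fnip2 was called. The young libraries held 204, 219, 202 and 217 normalized counts of Fnip2 and the old libraries 146, 147, 184, 166 and 157. Fnip2 fell without overlap, by a log2 fold change of -0.40 (SE 0.11, adjusted p-value 0.00555), and its call was lost with mitochondrial genes left out (adjusted p-value 0.0676). Normalized counts of Fnip1 were 230.1, 207, 264 and 197 in young and 193, 223, 237, 238 and 213 in old libraries. Fnip1, whose promoter holds a CACGTG, had overlapping groups and a log2 fold change of -0.018 (SE 0.12, adjusted p-value 0.904). Its share of the reads of both genes was 47.6% to 56.6% in young and 56.4% to 60.4% in old libraries (exact permutation test, two-sided, p = 0.0317, adjusted p = 0.0450).

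Of the 48 members, 12 stand on at least 1 of 4 TFEB target lists that the study curated from earlier work. Among these, 3 were called higher (Sqstm1, Gabarapl1 and Optn), 3 were called lower (Gabarap, Atg5 and Fnip2) and 6 were not called, so 50% of the 12 were called, beside 59.7% of all genes tested (29.2% higher and 30.5% lower). The median log2 fold change was -0.04 for the 12, -0.06 for the other 36 members, of which 9 were called higher and 12 lower, and -0.0027 for all genes tested. On the lists taken singly, the calls were 1 higher and 1 lower of 3, 1 higher and 2 lower of 6, 0 higher and 1 lower of 3, and 1 higher and 1 lower of 5. Only list genes that are also members are counted here, so these counts do not speak for the whole lists. The paper tested whole signatures and reported suppressed TFEB activity in naturally aged kidneys. It also reported fewer transcripts of several targets by qRT-PCR in old wild type kidneys.

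**Figure D4:**
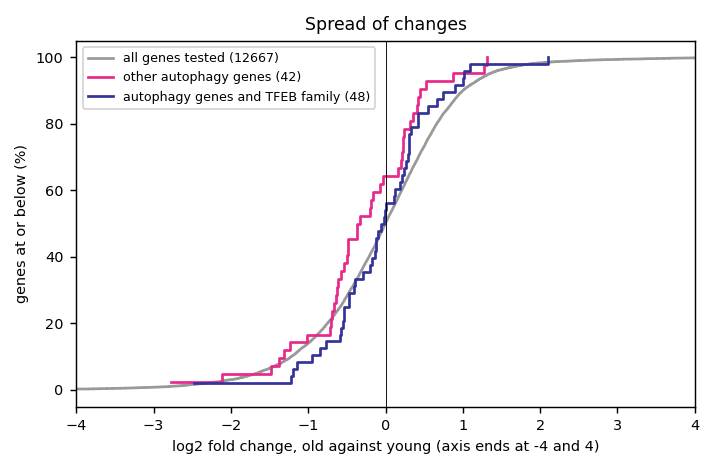
Cumulative share of genes (vertical axis, percent) at or below each log2 fold change of old against young (horizontal axis, from -4 to 4), for the 48 members, the 42 other autophagy genes tested and all 12667 genes tested. The median is -0.04 for the members, -0.35 for the other autophagy genes and near 0 for all genes.

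A further 45 autophagy genes that are not among the 48 were listed by role, and 42 of them were tested (Rubcnl, Atg9b and Calcoco2 were not in the table). Of these, 7 were called higher and 20 lower, where 29.2% of all genes tested were called higher and 30.5% lower, and the median log2 fold change was -0.35. The receptors for endoplasmic reticulum had 0 higher and 5 lower of 6, other mitophagy genes 2 higher and 4 lower of 9, and other cargo receptors 1 higher and 2 lower of 4. Regulators of initiation and nucleation had 3 higher and 3 lower of 10, tethering and fusion genes 1 higher and 3 lower of 8, and other transcription regulators 0 higher and 3 lower of 5. The largest called rises were in Vps41 (1.31, SE 0.14, adjusted p-value 3.64e-07), a subunit of a lysosomal tether, Nrbf2 (1.28, SE 0.27, adjusted p-value 0.000534), a subunit of the Atg14 complex, and Bcl2l13 (0.87, SE 0.12, adjusted p-value 4.18e-06), a mitophagy receptor. The largest called falls were in Tollip (-2.77, SE 0.19, adjusted p-value 5.250e-10), a ubiquitin-binding receptor, Flcn (-2.11, SE 0.20, adjusted p-value 5.99e-08), the folliculin that Fnip1 and Fnip2 bind, and Tfec (-1.48, SE 0.35, adjusted p-value 0.00149), the fourth gene of the TFEB family.

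**Figure D5:**
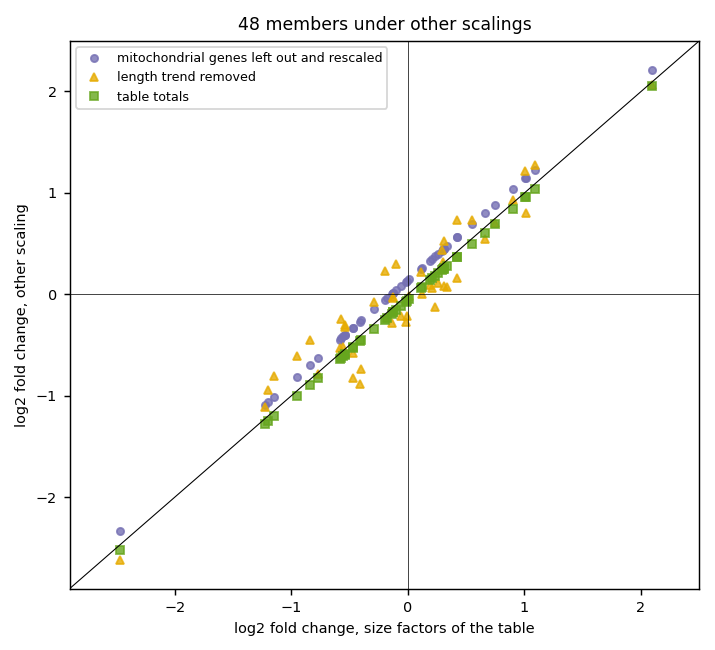
Log2 fold change of the 48 members under 3 other scalings (vertical axis) against that with the size factors of the table (horizontal axis), with the line of equality. Leaving out mitochondrial genes moved the points up together, by 0.14 in the median of all genes, and removing a length trend spread them around the line.

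How far the members' changes go with transcript length was described over genes. Spearman's rank correlation between log2 fold change and annotated transcript length was 0.242 over the 48 members and 0.275 over 12455 genes, which share libraries and are not independent replicates. Among the 27 called members, old replicate 2 was the old library nearest the young mean in 15 (55.6%), and it was so in 37.5% of all called genes. Without old replicate 2, 27 members were called, 12 higher and 15 lower. Across all settings tried, none of the 27 called members turned its direction. Low counts limited 6 members with means under 50 normalized counts, while 8 had means over 500.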

How the data were processed

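Kidney RNA from 4 young and 5 old wild type mice libraries was reverse transcribed from oligo(dT) with a kit that reads transcript ends and sequenced as stranded single reads. RNA quality was given as a single statement for all libraries, and the labels and the paper name different versions of the kit. Per the labels and the paper, the authors aligned reads with TopHat2 2.0.10 and Bowtie 1.0.0 to GRCm39, counted them by strand with HTSeq 0.6.1 on GENCODE vM26 and then normalized by DESeq. Each deposited value is thus a signal in units of counts, namely reads per gene over a size factor of the library. Taking the smallest positive value of a library as 1 read, 100% of values were whole multiples of it within 0.01, and these reads gave the counts for edgeR and DESeq2. The lowest mean of any gene was 4.49 normalized counts. Genes with fewer reads are absent by a rule not stated, and table totals cover listed genes only.

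Old and young libraries were compared by limma 3.58.1 with a variance trend (R 4.3.3) on log2 of the value + 1, a scale that understates changes of low counts, for genes with at least 10 normalized counts in at least 4 libraries. P-values were adjusted by Benjamini-Hochberg over 12667 genes, with a threshold of 0.05. edgeR 4.0.16 (quasi-likelihood) called 7649 genes and DESeq2 1.42.0 called 7532 on the whole reads, with no adjusted p-value for 9. Shares of paralogs were tested by an exact permutation test over all 126 arrangements of the libraries. Scripts were tested on simulated data. Other alternatives were pseudocounts of 0.1 and 5, no filter, a mean of at least 100, TMM, table totals, mitochondrial genes left out with the rest rescaled, a lowess trend on transcript length removed, and each library left out in turn. Lengths and overlaps came from GENCODE vM21 on GRCm38 and promoters from RefSeq GRCm38.p6, not the build of the authors.

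The members, lists and tests were chosen with earlier results of these data known. Every member is named. Values in every library are given for the 6 largest rises and 6 largest falls among called members with a mean of at least 50 normalized counts and groups that do not overlap, for the Atg8 family, and for Tfeb, Tfe3, Mitf, Fnip1 and Fnip2. The genes left out of summed levels (Ulk1, Sqstm1, Kap and Fabp4) were chosen after their values were seen. Of the other autophagy genes, the 3 largest called rises and falls are named. Counting error alone is covered by the depth of 4486406 to 6355095 reads, since no molecular identifiers mark which reads are copies of a molecule.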

Additional observations from a re-analysis of the deposited data

Results flagged for a closer look

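In the old kidneys, the share of Map1lc3a in the reads of the Atg8 family was 14.9% in old replicate 5, where the other old libraries held 10.4% to 11.7%. It stood apart by the gap to its nearest neighbor, which was 0.718 of the group's range, beside a critical value of 0.71 for 5 samples. Without this library the remaining groups do not overlap, so the exact test gives its smallest p-value by construction and says nothing more. The mean share then fell by 1.81 percentage points from young to old. The gap was found in 1 of 130 groups examined, and chance marks about 1 in 20 groups, or 6.5 here.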

How the results depend on the processing

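The 27 called members ranged from 19 (mean of at least 100) to 28 over the other settings and from 23 to 28 when a library was left out, with 9 to 17 higher and 10 to 18 lower. Members with a change of at least 1.5-fold numbered 9 with a mean of at least 100, a filter that tests fewer genes, and 14 to 19 otherwise. The paralog shares that passed numbered 0 to 11 when a library was left out. Other autophagy genes called numbered 21 to 30. In all, 23 of the 48 members kept their direction and call in every alternative they were tested in, where 33 of the 48 were tested with a mean of at least 100. Among log2 fold changes that turned direction, all of members that were not called, Ulk2 went to 0.13 with mitochondrial genes left out, 0.019 by edgeR, 0.018 by DESeq2 and -0.14 to 0.14 without 1 library. With mitochondrial genes left out, Atg101 went to 0.038, Wipi1 to 0.016, Wipi2 to 0.0797, Bnip3l to 0.017, Tecpr1 to 0.0006 and Fnip1 to 0.12. With the length trend removed, Atg101 went to 0.30, Rb1cc1 to -0.12, Atg4b to -0.021 and Map1lc3a to 0.23, and under table totals Atg4b went to -0.046. Without 1 library, Atg4b ranged from -0.075 to 0.087, Fnip1 from -0.077 to 0.062 and Wipi2 from -0.13 to 0.031, and the share difference of Atg4b from -0.78 to 1.66 percentage points. The cause was not tested. No paired analysis was made, because the labels give no pairing between the young and the old libraries. Depth limits the low genes most, such as Atg9a with as few as 1 read in a library.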
